A study of Mus musculus with 4 samples.

Results

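The 42 genes described here encode enzymes, transporters and regulators of central carbon metabolism, and all 42 were measured in mouse bone marrow macrophages. They were picked by gene name, with earlier results of these data known. There were 22 genes of glycolysis and lactate handling, 5 genes that control pyruvate dehydrogenase or the hypoxia pathway, 4 of the pentose phosphate pathway and 11 of the citric acid cycle or its partner reactions. They were found through the accessions that the array files give for their probes, which yielded 62 of the 39429 probes on the array, and 61 of these passed the filter on signal. One Pfkfb4 probe did not. After 1 probe was taken per gene, the 42 genes stood among 23595 genes or accessions tested.

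The cells came from the bone marrow of male mice, 6 weeks old, and were cultured for 7 days in medium with 25 ng/ml of the cytokine GM-CSF. Wildtype and CDK5R1 knockout cells were compared without a stimulus (basal) and after E. coli lipopolysaccharide (LPS) at 100 ng/ml for 6 h. Both genotypes carry the strain label B6.129S4-Cdk5r1tm1Lht/J. Cdk5r1 codes for p35, a protein that activates the kinase CDK5. On each of the 4 arrays, RNA of wildtype cells was labelled with Cy3 and RNA of knockout cells with Cy5, with 2 basal and 2 LPS arrays. The arrays are labelled as biological replicates but no animals are named, so the p-values measure the spread between these arrays.

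The dyes were never swapped, so in a knockout to wildtype ratio the genotype and a constant dye effect cannot be told apart. It cancels in LPS against basal within one genotype and in the difference of ratios between conditions. The arrays shared 1 slide and 1 scan. Cdk5r1 itself checks the labels: its log2 ratio, knockout over wildtype, was -0.37 and -0.59 at rest and -2.55 and -2.29 after LPS. The macrophage markers Adgre1, Itgam and Csf1r had signal well above background on every array in both genotypes. So did all 7 measured dendritic cell markers and all 4 stromal markers, so such signal alone does not identify the cells. GM-CSF cultures of bone marrow hold other myeloid cells too, and in bulk RNA fewer cells of a type and less RNA per cell cannot be told apart.

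Glycolysis splits glucose into pyruvate in the cytosol. Hexokinase and phosphofructokinase are its regulated early steps, and lactate dehydrogenase turns pyruvate into lactate, which monocarboxylate transporters export. Pyruvate dehydrogenase, which its kinases switch off, feeds pyruvate into the citric acid cycle in mitochondria. The pentose phosphate pathway branches off after hexokinase and makes NADPH and ribose phosphate. Macrophages exposed to LPS are widely known for increased glycolysis and a broken citric acid cycle with build-up of succinate and citrate, and HIF-1 is a transcription factor of many glycolytic genes.

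LPS against basal in each genotype asked which of these genes the stimulus changed. The hexokinase genes Hk2 and Hk3, the phosphofructokinase gene Pfkp and its regulator Pfkfb3 rose, while the pentose phosphate genes, most citric acid cycle genes and many other glycolytic genes fell, on arrays scaled so that the median gene stayed near 0; with each channel scaled to its 75th percentile instead, 0 of the 4 pentose phosphate genes passed in either genotype. In wildtype cells 6 of the 42 genes rose and 23 fell, a share of 69.0% called, where 41.8% of all genes tested were called (18.3% higher and 23.4% lower). In knockout cells 6 rose and 28 fell, or 81.0%, again beside 41.8% of all genes (19.1% higher and 22.7% lower). The median log2 difference of the 42 genes was -0.53 in wildtype and -0.67 in knockout cells, and that of all genes -0.01 in both. Calls are at a limma adjusted p under 0.05, and values after ± are the standard errors (SE) of that fit with n = 2 arrays per condition. By group, the medians in wildtype and knockout cells were -0.39 and -0.68 for glycolysis, -0.28 and -0.14 for pyruvate dehydrogenase control and HIF, -0.53 and -0.64 for the pentose phosphate pathway and -0.67 and -0.85 for the citric acid cycle. Glycolysis was the most spread group, from -1.47 to 1.75 in wildtype cells, where the pentose phosphate genes lay between -0.77 and -0.41 and the citric acid cycle genes between -1.86 and -0.12. The groups were not tested against each other.

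These counts depend on single arrays and on scaling. Fewer of the 42 genes passed when either basal array was left out. Without basal replicate 2 their share called was near that of all genes in the same fit. The medians of the 42 genes were then -0.38 in wildtype and -0.59 in knockout cells. Without basal replicate 1 these medians were -0.56 and -0.74. When each channel was scaled to its 75th percentile, the median of all genes itself moved to 0.38 in wildtype and 0.36 in knockout cells. The count was then 9 up and 10 down in wildtype and 7 up and 11 down in knockout cells. Of all 23595 genes, 11553 were up and 4212 down in wildtype, and 10709 up and 4187 down in knockout cells. The 42 genes were thus called less often than all genes, though more often as lower. Relative to the median gene under that scaling, the 42 genes still had medians of -0.39 and -0.52, with 33 and 34 of 42 below it. The group medians on that scale turned to 0.12 for glycolysis and 0.13 for the pentose phosphate pathway in wildtype cells, and were -0.15 and 0.01 in knockout cells, while those of the citric acid cycle stayed below 0 at -0.15 and -0.30. The genes were also bright: 32 of the 42 lay in the brightest 25% of all genes, whose own median LPS difference was -0.19 in wildtype and -0.20 in knockout cells. Markers of cell types and of division were read under LPS too, beside the 41.8% of all genes called in each genotype. Of 13 granulocyte markers 10 rose and 0 fell in wildtype cells (76.9%), and 8 rose and 1 fell in knockout cells (69.2%). Of 6 eosinophil, mast cell and basophil markers 4 rose in wildtype (66.7%) and 1 in knockout cells (16.7%). Of 8 macrophage markers 2 rose and 4 fell in each genotype (75%), and of 10 cell cycle genes 8 fell in each (80%). Of 7 dendritic cell markers 2 rose in wildtype and 3 in knockout cells, with 1 lower in each (42.9% and 57.1%). Of 6 lymphocyte markers 1 and 2 rose (16.7% and 33.3%), and of 4 stromal markers 1 rose in each (25%). Their part in the LPS values was not tested.

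**Figure D1:**
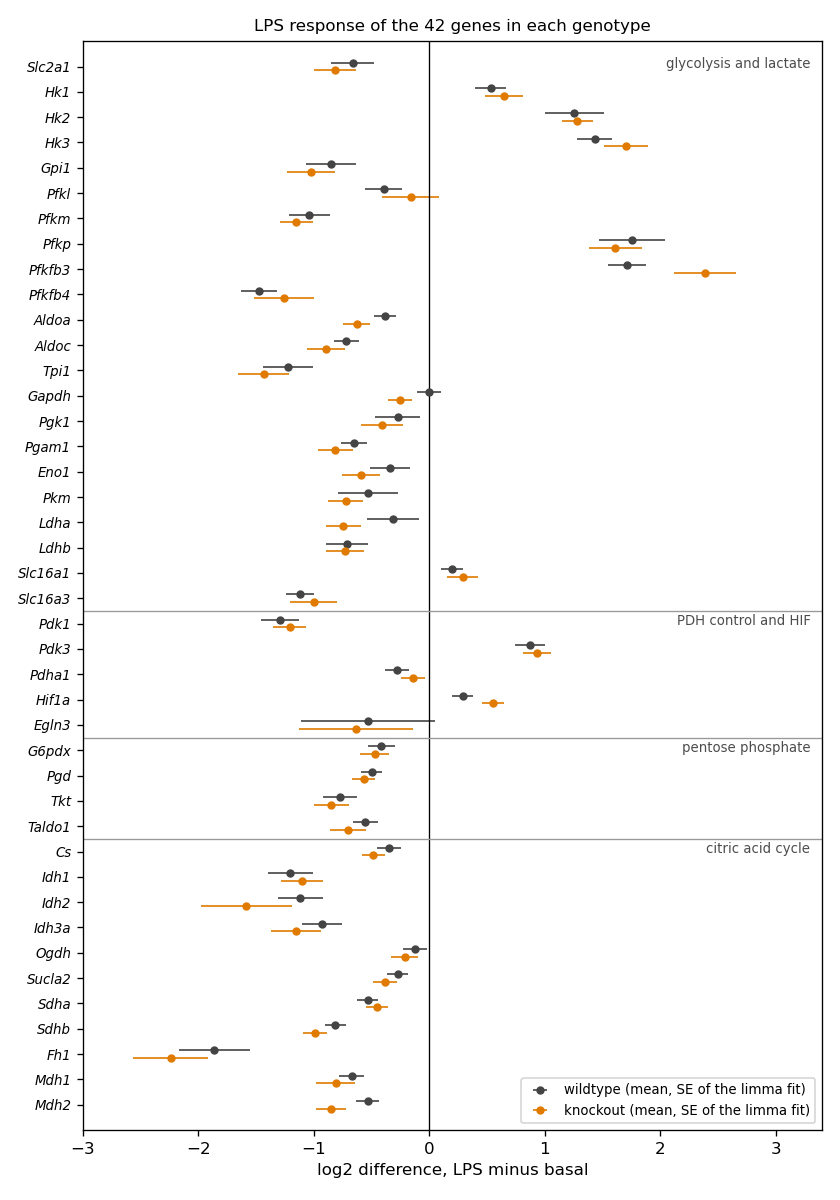
LPS response of the 42 genes: the x axis gives the log2 difference between LPS and basal arrays, with 1 row per gene, points for wildtype (grey) and knockout (orange) cells and bars for the SE of the limma fit (n = 2 arrays per condition). Pfkfb3, Pfkp, Hk3, Hk2, Hk1, Pdk3, Hif1a and Slc16a1 lie to the right of 0 in both genotypes. All 4 pentose phosphate and all 11 citric acid cycle genes lie to the left.

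Hexokinases trap glucose in the cell, and of their genes Hk2 and Hk3 rose in both genotypes. Hk3 had normalised log2 levels of 11.04 and 11.06 at rest and 12.28 and 12.67 after LPS in wildtype cells, and of 10.89 and 10.80 against 12.30 and 12.79 in knockout cells. The groups did not overlap in either genotype, and Hk3 rose by 1.43 ± 0.15 in wildtype (adjusted p = 0.0030) and 1.70 ± 0.19 in knockout cells (adjusted p = 0.0043), or 2.70-fold and 3.25-fold. Hk2, the inducible hexokinase, went from 10.52 and 10.75 to 12.24 and 11.55 in wildtype and from 10.62 and 10.78 to 12.10 and 11.86 in knockout cells. It rose by 1.26 ± 0.25 and 1.28 ± 0.14. Hk1, the broadly expressed form, had 1 of its LPS spots left out for an outlier flag, so that its main value of 0.53 ± 0.13 in wildtype cells (adjusted p = 0.048) and 0.65 ± 0.16 in knockout cells (adjusted p = 0.052) rests on a single LPS array. The wildtype call held under 6 of 12 other ways of processing. Its other probe, measured on all 4 arrays, differed by 0.72 in both genotypes. The main glucose transporter gene of macrophages, Slc2a1 (GLUT1), fell by 0.66 ± 0.19 in wildtype cells, from 12.57 and 13.07 to 12.15 and 12.17, and by 0.82 ± 0.18 in knockout cells, from 12.56 and 13.02 to 11.94 and 12.00. Its wildtype call (limma adjusted p = 0.045) held under 7 of 14 other ways of processing, and its knockout call under 10.

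Phosphofructokinase is the pacemaker of glycolysis, and the 3 genes of its subunits did not move together. Pfkp, the platelet-type subunit, stood at 11.20 and 11.99 on the basal and 13.50 and 13.21 on the LPS arrays in wildtype cells and rose by 1.75 ± 0.29, or 3.37-fold. In knockout cells it went from 11.32 and 11.87 to 13.35 and 13.05, a rise of 1.61 ± 0.23. Its second kept probe, which is much dimmer, gave 0.49 ± 0.25 and 0.35 ± 0.18, so the probes share the sign but not the size. Pfkm, the muscle-type subunit, fell by 1.04 ± 0.18 and 1.15 ± 0.14. Pfkl, the liver-type subunit, differed by -0.40 ± 0.16 and -0.16 ± 0.25 and did not pass in either genotype.

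The bifunctional enzymes of the PFKFB family set the level of fructose 2,6-bisphosphate, the activator of phosphofructokinase. Pfkfb3, the form with the highest kinase activity, had levels of 11.38 and 10.98 on the basal and 12.81 and 12.98 on the LPS arrays of wildtype cells. In knockout cells its levels were 11.28 and 10.97 against 13.17 and 13.86. It rose by 1.71 ± 0.17 (3.28-fold, adjusted p = 0.0024) and 2.38 ± 0.27 (5.22-fold, adjusted p = 0.0044), and its dimmer probe by 1.16 ± 0.09 and 1.51 ± 0.21. Pfkfb4 went the other way and fell by 1.47 ± 0.16 in wildtype and 1.26 ± 0.26 in knockout cells, from 11.87 and 11.74 to 10.15 and 10.52 in the wildtype channel.

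Of the other enzymes between glucose 6-phosphate and pyruvate, those that passed had fallen. Tpi1, the triosephosphate isomerase, fell by 1.22 ± 0.21 in wildtype cells, from 14.60 and 14.99 to 13.79 and 13.34, and by 1.44 ± 0.22 in knockout cells, from 14.13 and 14.70 to 13.08 and 12.88. Its second probe gave -0.73 ± 0.24 and -0.73 ± 0.20. Gpi1, the isomerase after hexokinase, fell by 0.85 ± 0.22 and 1.02 ± 0.21, and its 3 probes lay between -0.83 and -0.92 in wildtype and between -0.96 and -1.10 in knockout cells. The aldolases Aldoc and Aldoa fell by 0.72 ± 0.11 and 0.38 ± 0.09 in wildtype and by 0.90 ± 0.16 and 0.63 ± 0.12 in knockout cells, and the mutase gene Pgam1 by 0.65 ± 0.11 and 0.82 ± 0.15. Under 75th percentile scaling the wildtype values of Aldoa and Pgam1 turned positive. The wildtype calls of Gpi1 and Aldoa held under 8 and 7 of 14 other ways of processing.

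The last steps of glycolysis passed in knockout cells and not in wildtype cells for Eno1 (enolase, -0.59 ± 0.16 against -0.34 ± 0.17), Pkm (pyruvate kinase, -0.73 ± 0.15 against -0.53 ± 0.26) and Ldha (the lactate-forming dehydrogenase subunit, -0.75 ± 0.15 against -0.31 ± 0.23). None of the 3 passed the test of the difference between genotypes, with adjusted p between 0.32 and 0.72. Under 75th percentile scaling the knockout value of Eno1 turned positive, and its call held under 7 of 14 other ways of processing. Ldha had levels of 16.77 and 17.31 on the basal and 16.89 and 16.56 on the LPS arrays in wildtype cells, which overlap, and of 16.71 and 16.89 against 16.20 and 15.90 in knockout cells, which do not. Ldhb, the other lactate dehydrogenase subunit, fell by 0.71 ± 0.18 and 0.73 ± 0.17.

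Pgk1 and Gapdh, which carry out the steps after triose phosphate, did not pass in either genotype. Pgk1 differed by -0.27 ± 0.20 in wildtype and -0.41 ± 0.18 in knockout cells. Gapdh, often used as a reference gene, has 7 kept probes, which gave values from -0.28 to -0.00 in wildtype and from -0.46 to -0.16 in knockout cells. Among the lactate exporters, Slc16a3 (MCT4) fell by 1.12 ± 0.12, from 13.23 and 13.46 to 12.29 and 12.16 in wildtype cells, and by 1.00 ± 0.20 in knockout cells. Its second probe gave -1.12 and -0.99. Slc16a1 (MCT1) differed by 0.20 ± 0.10 and 0.29 ± 0.14 and did not pass.

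**Figure D2:**
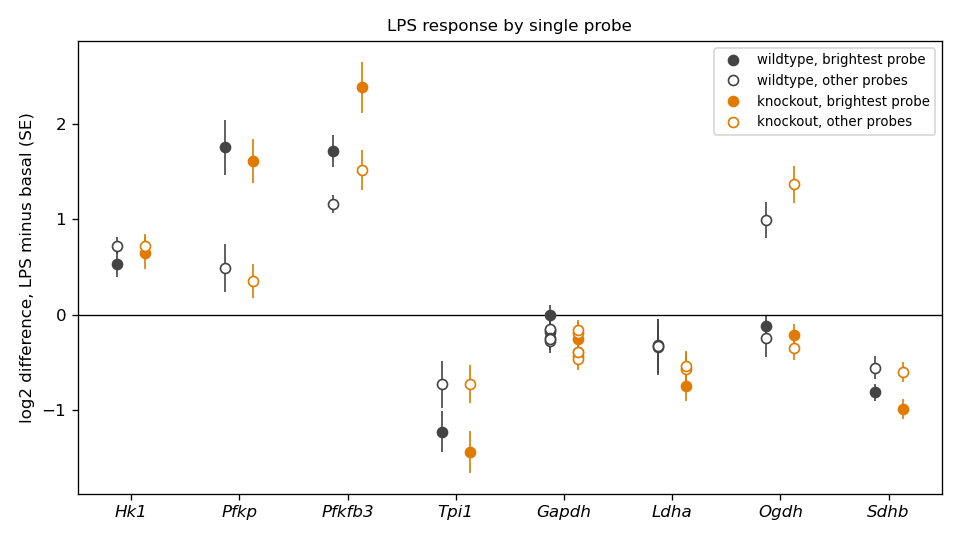
LPS response by single probe for 8 genes with several kept probes: the y axis gives the log2 difference between LPS and basal arrays with the SE of the limma fit, in wildtype (grey) and knockout (orange) cells, with filled points for the brightest probe and open points for the others. The probes of Tpi1 and Pfkp share a sign but differ in size, and 1 probe of Ogdh lies near 1 while the other probes of that gene lie below 0.

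At the entry to the citric acid cycle, the kinases that switch off pyruvate dehydrogenase moved in opposite directions. Pdk3 rose by 0.87 ± 0.13 in wildtype cells, from 10.72 and 10.64 to 11.41 and 11.69, and by 0.93 ± 0.12 in knockout cells. Pdk1 fell by 1.29 ± 0.17 in wildtype cells, from 9.18 and 9.27 to 8.14 and 7.72, and by 1.21 ± 0.14 in knockout cells. Pdha1, the catalytic subunit of the dehydrogenase, differed by -0.28 ± 0.11 and -0.14 ± 0.10 and did not pass. Hif1a rose by 0.55 ± 0.10 in knockout cells (adjusted p = 0.014), from 10.38 and 10.30 to 10.90 and 10.89. Its wildtype value of 0.29 ± 0.09 missed the threshold at an adjusted p of 0.058, and the difference between genotypes did not pass (adjusted p = 0.41). Egln3, a prolyl hydroxylase that marks HIF for degradation, was at 7.57 and 9.15 on the wildtype basal arrays, a spread wider than its differences of -0.53 ± 0.58 and -0.63 ± 0.50.

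All 4 pentose phosphate genes fell in both genotypes, with a median of -0.53 in wildtype and -0.64 in knockout cells. Of all genes 23.4% and 22.7% were lower. Tkt, the transketolase that links the pathway back to glycolysis, fell by 0.77 ± 0.15 and 0.85 ± 0.15. Taldo1, the transaldolase, fell by 0.55 ± 0.11 and 0.71 ± 0.16. The NADPH-forming dehydrogenases changed least in the group: Pgd fell by 0.50 ± 0.09 and 0.57 ± 0.10 and G6pdx by 0.41 ± 0.12 and 0.47 ± 0.12. Under 75th percentile scaling, G6pdx and Pgd turned positive in both genotypes and Taldo1 in wildtype cells, and the group medians became 0.13 and 0.01, which is -0.25 and -0.35 relative to the median gene. Without basal replicate 2, 0 of the 4 genes passed in either genotype, and without basal replicate 1 only 1 did in each. The wildtype call of G6pdx held under 4 of 14 other ways of processing.

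In the citric acid cycle group 8 of 11 genes fell in wildtype cells (72.7%) and 10 of 11 in knockout cells (90.9%), and none rose. Of all genes 23.4% and 22.7% were lower. Fh1, the fumarase, had levels of 13.53 and 13.94 on the basal and 12.28 and 11.47 on the LPS arrays in wildtype cells, and of 13.55 and 13.93 against 11.93 and 11.08 in knockout cells. It fell by 1.86 ± 0.31 and 2.24 ± 0.32, or 3.64-fold and 4.72-fold, the largest fall among the 42 genes in both genotypes. Without basal replicate 2 the median of the citric acid cycle group was -0.59 in wildtype and -0.73 in knockout cells. Without basal replicate 1 it was -0.755 and -0.891. Fewer genes of the group passed in both fits, at a share near that of all genes without basal replicate 2. Scaling to the 75th percentile left 4 lower in each genotype and 1 higher in wildtype cells. Of all 23595 genes 4212 were then lower in wildtype and 4187 in knockout cells. The isocitrate dehydrogenases were next within the citric acid cycle group. Idh1, the cytosolic NADP-linked form, fell by 1.20 ± 0.20 and 1.10 ± 0.18, and Idh2, the mitochondrial NADP-linked form, by 1.12 ± 0.19 and 1.58 ± 0.39. Idh3a, the catalytic subunit of the NAD-linked enzyme of the cycle, fell by 0.93 ± 0.18 and 1.15 ± 0.21.

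The succinate dehydrogenase genes fell less. Sdhb fell by 0.81 ± 0.09 in wildtype cells, from 15.04 and 15.05 to 14.26 and 14.20, and by 0.99 ± 0.10 in knockout cells, and its second probe gave -0.55 and -0.60. Sdha fell by 0.53 ± 0.09 and 0.45 ± 0.10. The malate dehydrogenases Mdh1 (cytosolic) and Mdh2 (mitochondrial) fell by 0.67 ± 0.11 and 0.53 ± 0.10 in wildtype and by 0.81 ± 0.17 and 0.85 ± 0.13 in knockout cells. Cs, the citrate synthase, and Sucla2, a subunit of succinyl-CoA ligase, fell in knockout cells by 0.48 ± 0.10 and 0.39 ± 0.10. Their wildtype values of -0.35 ± 0.11 and -0.28 ± 0.09 did not pass. The knockout calls of Cs and Sucla2 held under 8 and 6 of 14 other ways of processing. Under 75th percentile scaling Mdh2 turned positive in wildtype and Cs in knockout cells.

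Ogdh, a subunit of the oxoglutarate dehydrogenase complex, was the gene of this group whose probes disagreed most. Its brightest probe differed by -0.12 ± 0.11 in wildtype and -0.21 ± 0.12 in knockout cells and did not pass, and a second probe gave -0.25 ± 0.19 and -0.35 ± 0.13. The third probe had levels of 11.57 and 11.12 on the basal and 12.23 and 12.45 on the LPS arrays of wildtype cells, a difference of 0.99 ± 0.19, and of 1.36 ± 0.19 in knockout cells. No direction can be given for the gene as a whole.

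The calls for Pfkfb3, Pfkp, Hk3, Idh1 and Pdk1 held in both genotypes under each of the 14 other ways of processing the data that were run. The same was true of Pfkfb4 and Slc16a3 in wildtype cells and of Hk2, Pfkm and Tpi1 in knockout cells. No other LPS call among the 42 genes held under every one. The single-probe fit among the 14 read only the brightest probe of each gene, so it did not test the dimmer probes. The 14 also include the fit with replicate numbers crossed between conditions, which was chosen after seeing the data.

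The LPS response was also read in 70 further genes of the same pathways, of which 67 were measured. In wildtype cells 9 rose and 31 fell (59.7%, beside 41.8% of all genes), with a median of -0.42. In knockout cells 9 rose and 26 fell (52.2%, again beside 41.8%), with a median of -0.36. Of all genes 18.3% were higher and 23.4% lower in wildtype cells, and 19.1% and 22.7% in knockout cells. The largest rises were those of Slc2a6, a glucose transporter family gene (3.24 ± 0.09 in wildtype and 3.15 ± 0.16 in knockout cells), and of Eno2, an enolase (1.56 and 1.85). The HIF target Adm rose by 0.94 and 1.18. Got1, a transaminase of the malate-aspartate shuttle, fell by 1.88 and 1.76, and the pyruvate dehydrogenase kinase gene Pdk2 by 1.86 and 1.94. In wildtype cells the next largest falls were those of the HIF target Bnip3 (-1.61) and of Bpgm, the bisphosphoglycerate mutase (-1.59). In knockout cells they were those of Rpia, an isomerase of the pentose phosphate pathway (-1.74), and of the ADP-dependent glucokinase gene Adpgk (-1.56).

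Because many glycolytic genes are textbook HIF-1 targets, the bases upstream of their starts were read for the 2 cores of the hypoxia response element, ACGTG and GCGTG, on both strands. Promoter windows of 250 bases came from RefSeq on build GRCm38.p6, and 41 of the 42 genes were listed, with 61 windows. The core ACGTG was present in 42.6% of these windows and in 16.6% of all 32851 windows of that length, and GCGTG in 57.4% and 28.2%. The windows of the 42 genes were also richer in the CG dinucleotide that both cores contain, with a median of 15 against 6, and in GC, at 60.4% against 52.4%. By role, ACGTG was found for 12 of 22 glycolysis genes and 3 of 5 genes of pyruvate dehydrogenase control and HIF. It was found for 0 of 4 pentose phosphate genes and 3 of 10 citric acid cycle genes. GCGTG was found for 14 of 22, 3 of 5, 4 of 4 and 7 of 10 genes of these groups in the same order. The antioxidant response element core TGACNNNGC, read as a second motif for the NADPH-forming genes, was in 8.2% of the windows and in 10.2% of all. A match is a run of letters and not a bound site.

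The following 150 bases upstream of a start are shown because they belong to genes that share the core but went different ways under LPS: Hk2 and Pfkfb3 rose, Slc16a3 fell, Ldha fell in knockout cells and Pgk1 did not pass. Capitals mark ACGTG or GCGTG on either strand, so that CACGT is ACGTG read from the other strand and the palindrome CACGTG counts on both. Where a gene has several annotated starts, the window with the most matches is given.
Hk2, chr6:82774455-82774604, minus strand: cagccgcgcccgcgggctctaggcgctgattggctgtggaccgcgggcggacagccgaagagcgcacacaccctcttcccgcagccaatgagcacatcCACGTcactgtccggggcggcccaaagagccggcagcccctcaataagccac
Pfkfb3, chr2:11502091-11502240, minus strand: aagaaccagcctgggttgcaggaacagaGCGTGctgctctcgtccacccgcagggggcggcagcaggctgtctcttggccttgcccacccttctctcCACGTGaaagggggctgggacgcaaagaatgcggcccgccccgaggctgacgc
Ldha, chr7:46845654-46845803, plus strand: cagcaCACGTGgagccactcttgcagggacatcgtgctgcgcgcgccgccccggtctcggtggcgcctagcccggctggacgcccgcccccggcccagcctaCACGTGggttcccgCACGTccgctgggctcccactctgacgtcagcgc
Pgk1, chrX:106186950-106187099, plus strand: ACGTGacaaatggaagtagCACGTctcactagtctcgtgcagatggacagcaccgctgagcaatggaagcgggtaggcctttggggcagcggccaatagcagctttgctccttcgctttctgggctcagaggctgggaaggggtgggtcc
Slc16a3, chr11:120948917-120949066, plus strand: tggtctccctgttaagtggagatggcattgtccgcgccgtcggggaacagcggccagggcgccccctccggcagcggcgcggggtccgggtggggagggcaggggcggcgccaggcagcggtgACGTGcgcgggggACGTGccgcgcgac
The window of Ldha held 5 matches over both strands, that of Pfkfb3 3, those of Pgk1 and Slc16a3 2 each and that of Hk2 1. The 150 bases upstream of Tpi1, which fell in both genotypes, held 0. The genes shown were picked for the core and for their different responses. Whether the cores go with a direction under LPS was not tested.

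Knockout against wildtype under basal conditions asked whether the loss of Cdk5r1 changes these genes at rest. Few genes were lower in the knockout channel: 0 of 42 were higher and 2 were lower (4.76%), where 5.00% of all genes were called (3.47% higher and 1.53% lower). Both were enzymes that had also fallen under LPS. Tkt had log2 ratios, knockout over wildtype, of -0.70 and -0.67 on the basal arrays, a mean of -0.69 ± 0.12 (adjusted p = 0.025). Ldhb had ratios of -0.83 and -0.47, a mean of -0.65 ± 0.10 (adjusted p = 0.014). The other 40 genes lay between -0.38 and 0.29, and the medians were -0.08 for glycolysis, -0.01 for pyruvate dehydrogenase control and HIF, -0.13 for the pentose phosphate pathway and 0.07 for the citric acid cycle.

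The basal count did not hold under all processing. From Agilent's processed signals and from the authors' value table it was 0, and without any 1 of the 4 arrays it was 0 or 1 (0 without basal replicate 1). With each array centred on its median in place of loess it was 16 higher and 1 lower, the latter Ldhb (-0.46). Tkt at -0.24 did not pass. Of all 23595 genes 3870 were then higher and 656 lower. Median centring leaves a ratio that rises with brightness: the brightest 25% of all genes then had a median log2 ratio of 0.27 on the basal and 0.24 on the LPS arrays, the dimmest 25% had -0.09 and -0.05, and the 42 genes had 0.23 and 0.19. With loess, which removes a trend of the ratio over brightness by design, the brightest 25% were at -0.01 and -0.03. These values therefore cannot tell which of the 2 scalings is closer to the true ratios.

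Knockout against wildtype under LPS asked the same of stimulated cells. Here 2 of the 42 genes were higher and 9 lower (26.2%), beside 12.5% of all genes tested (7.25% higher and 5.23% lower), and the median was -0.18 against -0.00 for all genes. The lower genes were Ldha, Ldhb, Tpi1, Pkm, Aldoa and Gpi1 of glycolysis, Tkt of the pentose phosphate pathway, Fh1 of the citric acid cycle and the hydroxylase gene Egln3. Pfkfb3 and Pdha1 were higher. From Agilent's processed signals, and from the authors' value table, 3 genes passed (Aldoa, Ldha and Egln3, all lower). Of all 23595 genes, 961 were then higher and 808 lower from the processed signals, and 967 and 798 from the authors' table. The share of the 42 genes called was thus near that of all genes. Without LPS replicate 1 the count was 2 and without LPS replicate 2 it was 1. With median centring 12 genes were higher and 4 lower, the latter Tkt, Tpi1, Ldhb and Egln3. Of all 23595 genes 4664 were then higher and 864 lower. The group medians turned from -0.18 to 0.14 for glycolysis and from -0.24 to 0.18 for the pentose phosphate pathway. That of the citric acid cycle turned from -0.19 to 0.21.

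Cell type markers were also read between the genotypes, where 5.00% of all genes were called under basal conditions and 12.5% under LPS. Of 13 measured granulocyte markers, which include Camp, Ltf, S100a8 and S100a9, 7 were lower in the knockout channel under basal conditions and 9 under LPS, and 0 were higher. Their summed level in the knockout channel was 0.49 and 0.48 times that of the wildtype channel on the basal arrays and 0.38 and 0.34 times on the LPS arrays. The summed level of the 42 genes was 0.95 and 0.94 times the wildtype level on the basal and 0.82 and 0.85 times on the LPS arrays. Of 10 cell cycle genes 1 was lower under basal conditions and 6 under LPS, with 0 higher. Of 8 measured macrophage markers 2 and 3 were lower and 0 higher, and of 7 dendritic cell markers 1 and 2 were higher and 0 and 1 lower. Of 6 eosinophil, mast cell and basophil markers 2 and 1 were higher and 2 and 2 lower. Their summed levels were 0.35 to 0.52 times those of the wildtype channel. Their median log2 ratio was 0.18 and -0.04 on the basal and 0.00 and -0.12 on the LPS arrays. The 6 lymphocyte markers had 0 calls in both conditions, and 1 of 4 stromal markers was lower in each. The part of these markers in the knockout values of the 42 genes was not tested.

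Under LPS both lactate dehydrogenase genes were lower in the knockout channel, but with median centring the value of Ldha shrank to -0.08 (limma adjusted p = 0.61) and that of Ldhb was -0.52. At rest Ldhb passed and Ldha did not (adjusted p = 0.24). Ldha had log2 ratios of -0.69 and -0.65 on the LPS arrays against -0.06 and -0.41 on the basal arrays, and a mean of -0.67 ± 0.10 under LPS (1.59-fold lower, adjusted p = 0.0076). Its other 2 probes gave -0.66 and -0.51 under LPS. Ldhb had ratios of -0.64 and -0.69 on the LPS arrays, a mean of -0.66 ± 0.10 (1.59-fold lower). Tkt had -1.02 and -0.51, which spread more widely, and a mean of -0.76 ± 0.12 (1.70-fold lower).

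Among the other glycolytic genes, Tpi1 had ratios of -0.71 and -0.46 on the LPS arrays, a mean of -0.59 ± 0.09, while its second probe gave -0.22 ± 0.08. Its basal ratios were -0.47 and -0.28, a mean of -0.38 ± 0.09 that missed the threshold (adjusted p = 0.076). Pkm had -0.71 and -0.37, a mean of -0.54 ± 0.10. Aldoa had -0.42 and -0.45, a mean of -0.43 ± 0.07, and Gpi1 -0.30 and -0.28, a mean of -0.29 ± 0.07. With median centring Aldoa and Gpi1 turned positive, to 0.16 and 0.20, and Pkm no longer passed at -0.23. Fh1 had ratios of -0.35 and -0.40 under LPS, a mean of -0.37 ± 0.07 that became -0.18 and did not pass with median centring, and 0.02 and -0.01 on the basal arrays. Egln3 had -0.41 and -0.37, a mean of -0.39 ± 0.09, and its second probe gave -0.35.

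The genes that were higher differed in how well their arrays matched. Pfkfb3 had log2 ratios of 0.36 and 0.88 on the LPS arrays, a mean of 0.62 ± 0.12 (1.53-fold higher, adjusted p = 0.023), and its second probe gave -0.07 and 0.46, a mean of 0.19 ± 0.12. On the basal arrays its ratios were -0.10 and -0.01. Pdha1 had 0.43 and 0.25, a mean of 0.34 ± 0.08 (adjusted p = 0.043), and basal ratios of 0.28 and 0.11. Hif1a had 0.28 and 0.23 under LPS, a mean of 0.26 ± 0.07 that missed the threshold (adjusted p = 0.058). Pgk1, at -0.41 ± 0.11 (adjusted p = 0.054), and G6pdx, at -0.28 ± 0.07 (adjusted p = 0.060), also missed it.

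**Figure D3:**
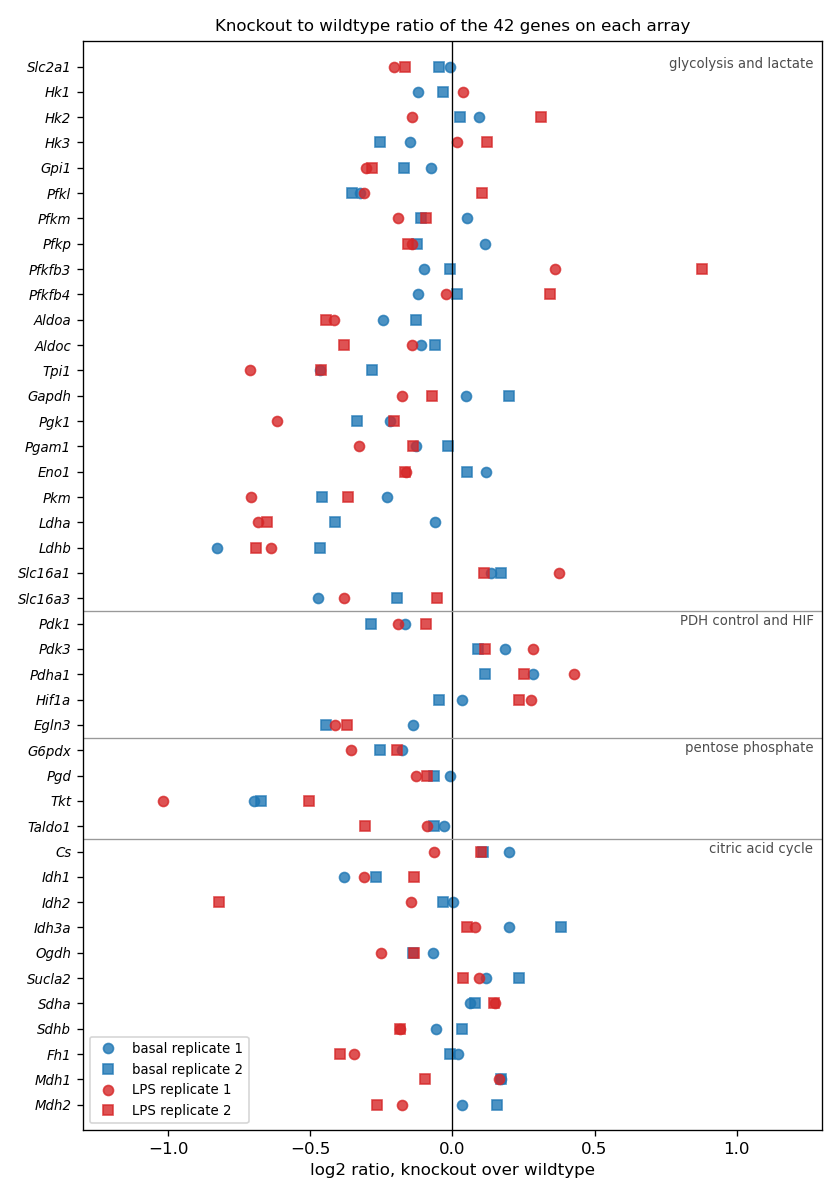
Knockout to wildtype ratio of the 42 genes: the x axis gives the log2 ratio of the gene's brightest kept probe, with 1 row per gene, blue points for the 2 basal and red points for the 2 LPS arrays and circles and squares for replicates 1 and 2. Ldhb and Tkt lie left of 0 on all 4 arrays, Ldha is lower on the LPS than on the basal arrays, and the LPS points of Pfkfb3 lie at 0.36 and 0.88.

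The difference of the knockout effect between LPS and basal, which no constant dye effect can shift, was called for 0 of 42 genes, where 0.407% of all genes were called. At an unadjusted p under 0.05, limma gave 8 of the 42, 3 with a positive and 5 with a negative difference, and the lowest adjusted p was 0.22. The calls were also 0 under every other way of processing that was run. The widest differences were 0.67 ± 0.17 for Pfkfb3, -0.47 ± 0.21 for Idh2 and -0.43 ± 0.14 for Ldha. A difference between the LPS and the basal knockout effect was therefore not detectable for any of the 42 genes with 2 arrays per condition. In the group medians, the difference was -0.14 for glycolysis, 0.08 for pyruvate dehydrogenase control and HIF, -0.07 for the pentose phosphate pathway and -0.14 for the citric acid cycle.

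Of the 67 further pathway genes, 1 was higher and 1 lower in the knockout channel under basal conditions (2.99%, beside 5.00% of all genes) and 7 were higher and 3 lower under LPS (14.9%, beside 12.5% of all genes), both shares near the background. Pdhb, which encodes the second subunit of the dehydrogenase that Pdha1 belongs to, was higher by 0.59 ± 0.07 under basal conditions and 0.42 ± 0.07 under LPS. Mpc1, a subunit of the mitochondrial pyruvate carrier, was lower in both conditions, at -0.66 ± 0.09 and -0.47 ± 0.09. Under LPS the glucose transporter gene Slc2a3 (0.66 ± 0.13), the HIF target Vegfa (0.49 ± 0.10), Bpgm (0.46 ± 0.07) and Eno3 (0.46 ± 0.07) were higher, while Fbp1, a gluconeogenic phosphatase (-0.77 ± 0.14), and the transaminase gene Got2 (-0.30 ± 0.07) were lower.

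**Figure D4:**
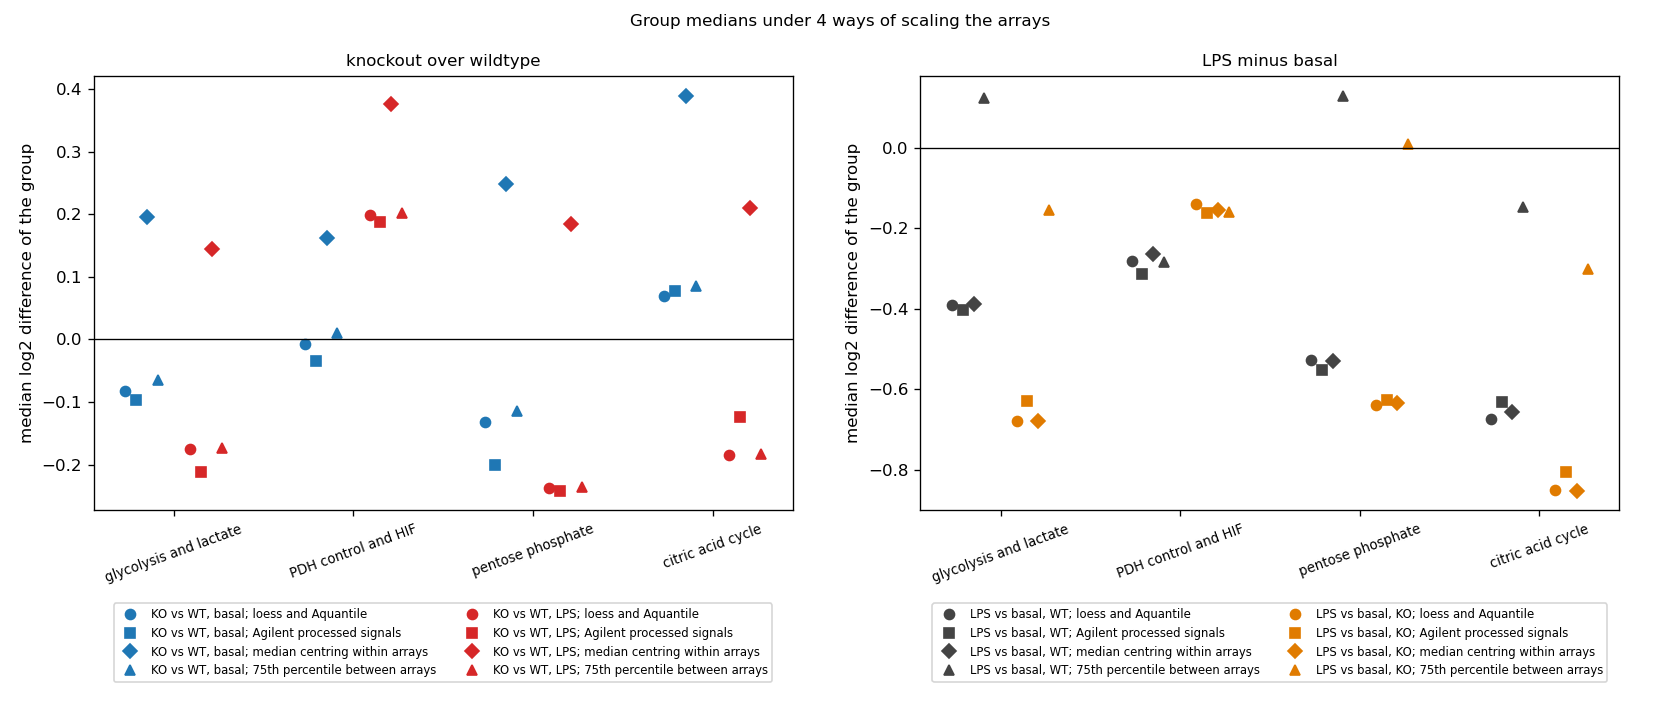
Median log2 difference of the 4 gene groups under 4 ways of scaling: the left panel shows knockout over wildtype (blue basal, red LPS), the right panel LPS minus basal (grey wildtype, orange knockout), and the marker shape gives the scaling named in the legend. On the left the diamonds (median centring) lie above 0 in every group, while the circles (loess and Aquantile) lie between -0.24 and 0.20. On the right only the triangles (75th percentile) of the glycolysis group in wildtype cells and of the pentose phosphate group lie above 0.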

How the data were processed

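The arrays were Agilent 2-colour arrays, 4 in all, with 2 per condition. Per the file headers, the deposited scanner files hold median intensities of both channels with local background and quality flags, made with Agilent Feature Extraction 11.5.1.1. The submitters' processing notes name version 9.3.2.1. The deposited log10 ratio of each spot was not used for tests. The value table of the authors is in log2 (knockout over wildtype). It equals Agilent's processed ratio plus a constant of -0.0020 to 0.0051 for 100% of the single-spot probes, within 0.001, and has column medians of 0.016, 0.034, 0.029 and 0.031. Why that constant was used is unknown here. The flag columns (unit other) are the deposited marks for outliers and for signal above background.

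Here the median intensities were corrected with normexp (offset 50), normalised by loess within and Aquantile between arrays with limma 3.58.1 in R 4.3.3, and spots with an outlier flag (207 to 255 per array) were left out. The design had assumed mean foreground intensities, where the files give medians. No probe spot was saturated, and 68.3% to 71.0% of the Cy3 and 62.1% to 65.0% of the Cy5 probe spots were well above background. A probe was kept when 1 channel was well above background on at least 2 arrays, and the brightest kept probe stood for its gene. Accessions were matched without versions to RefSeq (GRCm38.p6), which named 27508 probes and left 11921 with the accession of the file. Ratios of all 4 arrays were fitted with lmFit and eBayes, 1 coefficient per condition, and each channel was fitted for LPS against basal. Tests were two-sided, with Benjamini-Hochberg adjustment over 23595 genes and a threshold of 0.05. The fits were tested on simulated data.

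The 42 genes and the other lists were chosen with earlier results of these data known. Every gene of the 42 that passed is named, as are those whose probes disagree in sign or by over 1. In the basal ratio, knockout over wildtype, the probes differed in sign for Hk1 (-0.08 to 0.09) and Gapdh (-0.20 to 0.12). In the LPS ratio they did so for Ogdh (-0.19 to 0.16). In the difference of the knockout effect they did so for Tpi1 (-0.21 to 0.0042), Gapdh (-0.28 to 0.12), Ogdh (-0.10 to 0.37) and Hk1 (-0.01 to 0.12). Of the further pathway genes up to 4 in each direction are named per comparison. Hkdc1 and Pdk4 were among the further genes that did not pass the filter, and some of the further genes are not reported here. The alternatives were processed signals, median centring, 75th percentile scaling, no filter and a stricter filter, the mean over probes, single probes, the replicate number as a block, leaving out each array, the authors' table, and a joint fit of both channels. Replicate numbers were checked for pairing: the deviations of same-numbered arrays correlated at -0.16 for the ratios, -0.19 for wildtype and -0.08 for knockout levels. The number of arrays limits the precision.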

Additional observations from a re-analysis of the deposited data

Results flagged for a closer look

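The knockout effect on Cdk5r1, the targeted gene, differed between the conditions. Its log2 ratio, knockout over wildtype, was -0.48 ± 0.09 (SE, n = 2) on the basal and -2.42 ± 0.09 on the LPS arrays, lower on 4 of 4 arrays, a difference of -1.94 ± 0.13 by limma's test of the difference (adjusted p = 0.0043). LPS raised Cdk5r1 by 1.97 ± 0.22 in wildtype cells, and the knockout channel differed by 0.03 ± 0.29. The difference passed in 10 of the 14 other ways of processing and the basal call in 5.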

How the results depend on the processing

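The 76 called values of the 42 genes were recomputed under the alternatives, giving 1062 values, of which 848 kept direction and threshold, 202 kept the direction but no longer passed and 12 reversed. Under median centring Aldoa and Gpi1 reversed to 0.16 and 0.20 (knockout against wildtype, LPS). Under 75th percentile scaling the reversed wildtype LPS responses were Aldoa 0.24, Taldo1 0.088, Pgam1 0.011, Mdh2 0.18, Pgd 0.20 and G6pdx 0.17, and the reversed knockout ones Eno1 0.030, Cs 0.23, Pgd 0.11 and G6pdx 0.10. The cause was not tested. Counts of called genes that moved by over 1.5 times were, for knockout against wildtype under basal conditions (2), 0 from processed signals, 17 with median centring and 0 from the authors' table, and under LPS (11), 3 from processed signals and 3 from the authors' table. With 75th percentile scaling the LPS counts were 19 in wildtype (29) and 18 in knockout cells (34), shares below those of all genes under that scaling. Leaving out 1 array gave 0 to 1 calls for the basal ratio, 1 to 11 for the LPS ratio, 8 to 25 for LPS in wildtype and 9 to 31 for LPS in knockout cells. In those fits a condition left with 1 array is assumed to vary like the other. The difference of the knockout effect had 0 calls throughout.

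The arrays share only a replicate number. With the replicate block the counts were 2, 8, 0, 25 and 29, and no count moved by over 1.5 times. With the numbers crossed between conditions, chosen after seeing the data, they were 4, 16, 0, 29 and 32. With 2 arrays per condition, small differences could not be separated from array spread.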
